A study of Homo sapiens with 6 samples.

Results

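The mitochondrial ribosomal protein genes are 75 genes, out of 36884 rows of a deposited RNA-seq count table, whose symbols begin with MRPS or MRPL followed by a number. Each had a mean of at least 20 counts over the 6 libraries. The pattern fitted 83 rows and 77 symbols. The 6 further rows of MRPS18B held no counts and gave way to the row of highest mean, and MRPL30 (mean 0.333 counts) and MRPS21 (no count) fell under the minimum. The members nearest above it were MRPL53, at a mean of 40.3 counts, and MRPL38, at 47.8. All 75 passed the filter on low counts and were tested. MRPL45 was not analysed here.

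Mitochondria carry their own ribosome, which reads the few messenger RNAs of the mitochondrial genome, all of them for subunits of the respiratory chain and the ATP synthase. Its ribosomal RNAs come from the mitochondrial genome, but its proteins are encoded in the nucleus, made in the cytosol and imported. Part of them descend from bacterial ribosomal proteins, and the others are particular to mitochondria and cover a shortened ribosomal RNA. In the structures of the human particle, 25 of the members belong to the small subunit, which decodes the messenger, and 49 to the large subunit, which joins amino acids. MRPS18A and MRPS30 sit in the large subunit in spite of their names. MRPS36 is now known as a subunit of the alpha-ketoglutarate dehydrogenase complex and is kept under the symbol rule only.

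The cells were RPE1, an immortalized, non-transformed human epithelial line derived from retinal pigment epithelium. In both groups LATS1 and LATS2, the kinases of the Hippo pathway that restrain YAP and TAZ, had been inactivated with CRISPR-Cas9. One group received siRNA against MK5 (siMK5), a protein kinase encoded by MAPKAPK5, and the other control siRNA (siCon), each for 48 h, with 3 libraries a group that the submitters describe as biological replicates. The comparison asks which transcripts differ once MK5 is depleted in a LATS-deficient line. Whether the libraries came from separate cultures is not given in the sources used here, so p-values measure the spread between these libraries.

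Library totals were 27188074 to 28236773 counts. Levels are CPM, counts scaled by the TMM-adjusted library total, and sets of 3 values follow replicates 1, 2 and 3. Differences are log2 fold changes of siMK5 over siCon ± SE (n = 3 per group) from edgeR's quasi-likelihood test. A gene is said to have risen or fallen where its Benjamini-Hochberg adjusted p over the 13431 genes tested was below 0.05. MAPKAPK5 (ENSG00000089022) held 17.4, 14.1 and 16.2 CPM in siMK5 cells, against 35.6, 29.05 and 31.3 CPM in siCon cells, so the siRNA's target differed by −1.01 ± 0.14 on the log2 scale (edgeR adjusted p = 0.00169). Of the pigment epithelium markers, RPE65, RLBP1, TYR and TTR were at or near 0 in both groups, while OTX2 averaged 34.8 ± 0.919 CPM in siMK5 cells and 32.4 ± 2.61 CPM in siCon cells, and MITF averaged 25.3 ± 3.45 and 54.1 ± 4.08 CPM. The leukocyte, endothelial and other epithelial markers PTPRC, CD3E, CD68, PECAM1, CDH5 and EPCAM stayed at or below 0.46 CPM in every library. Of the 10 marker genes tested, MITF, PMEL, KRT8 and KRT18 fell (40%, against 23.7% of all tested genes). None rose by edgeR, DESeq2 or limma, nor at an unadjusted p below 0.05. PMEL was low, with means of 0.546 CPM in siMK5 cells and 2.04 CPM in siCon cells. BEST1 (0.697 and 0.691 CPM) did not pass. TYRP1 (0.186 and 0.335 CPM) and DCT (0.207 and 0.0128 CPM) were too low to be tested. The part of the markers in the results was not tested. Replicate 1 of siCon stood apart from replicates 2 and 3 in many genes. Values without it are given below for only part of the results that rest on it.

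Of the 75 members, 20 fell in siMK5 cells, 3 rose and 52 did not pass. The share that fell, 26.7%, lay near the 23.7% of all tested genes that fell (3186 of 13431), and the share that rose, 4%, stood below the 22.5% of all tested genes that rose (3020 of 13431). The median log2 fold change of the members was −0.13, against 0.00 over all tested genes, and 53 of the 75 had a negative value. Falls of at least 2-fold were found in 3 members, where 11.5% of all tested genes fell so far, and no member rose by as much, where 10.8% of all tested genes did. All 3 siMK5 libraries lay below all 3 siCon libraries in 31 members (41.3%, against 29.8% of tested genes) and above them in 3 (4%, against 30.6%). Read against all tested genes, the number of falls was near the background and few members rose. At an unadjusted p below 0.05, 26 members were lower and 4 higher, where 27.7% and 26.6% of all tested genes were. DESeq2 called 25 members lower and 3 higher, none of them at least 2-fold higher, where it called 26.6% and 24.2% of 13427 genes. In bulk RNA, less transcript per cell and fewer cells that make it cannot be told apart.

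**Figure D1:**
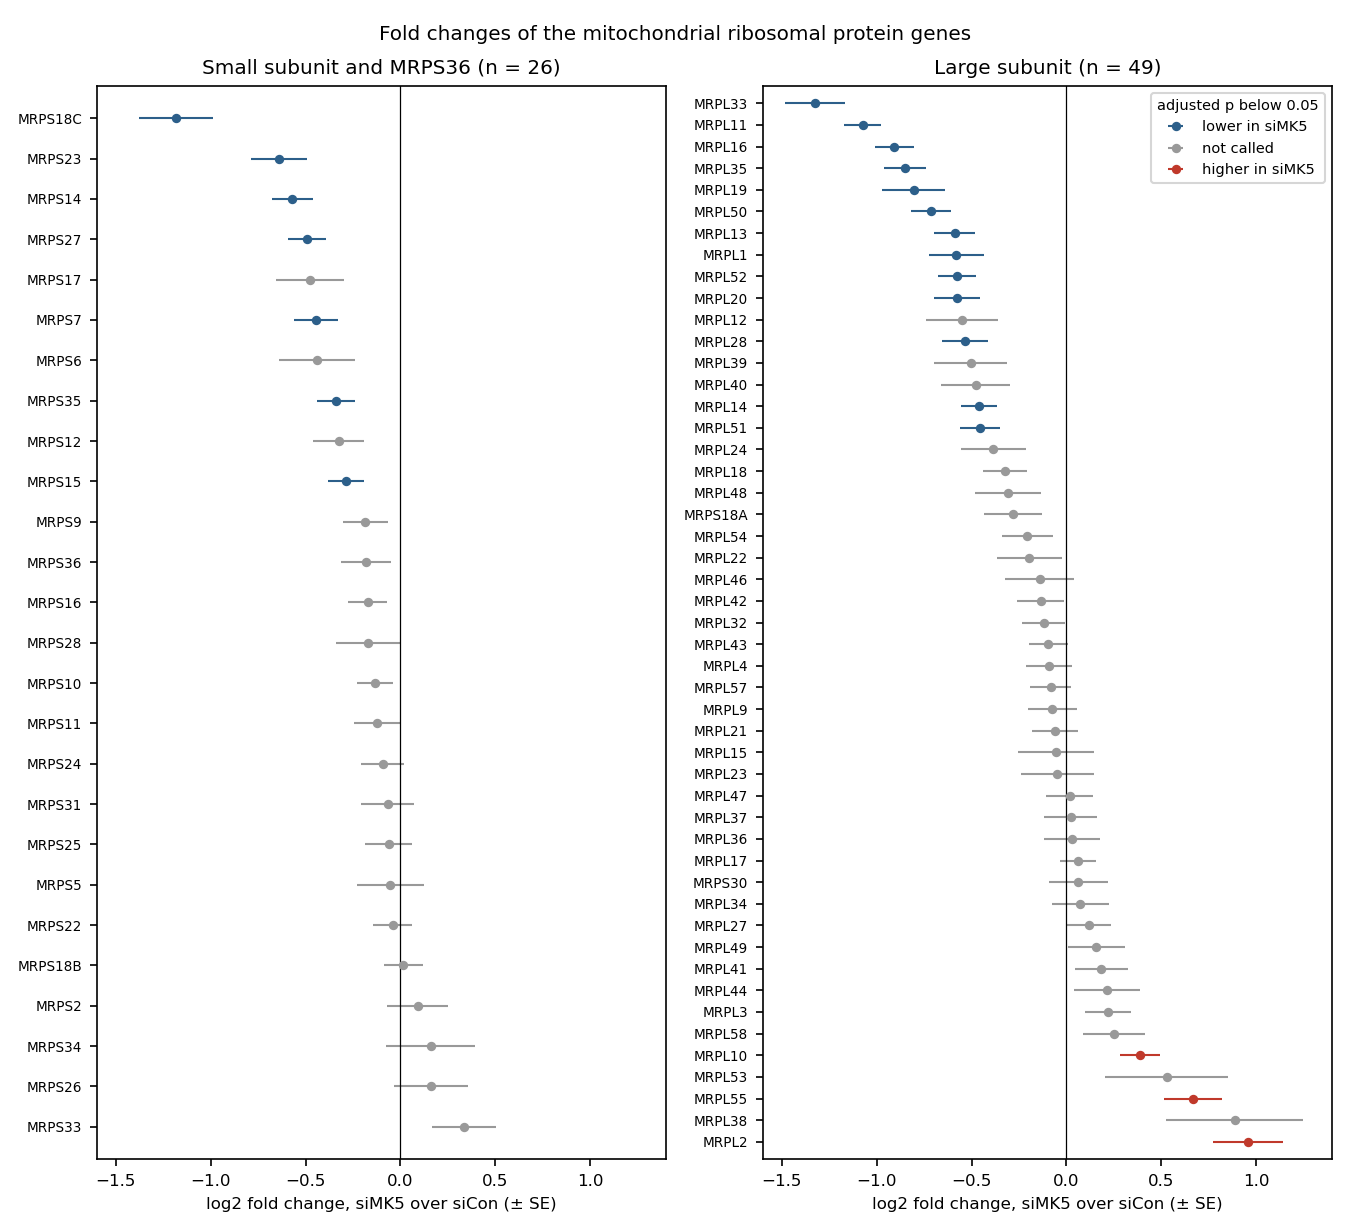
Log2 fold change of siMK5 over siCon, with its SE, for each of the 75 members, small subunit and MRPS36 on the left and large subunit on the right, sorted by value. Blue points fell and red points rose at an adjusted p below 0.05. The points run from −1.33 in MRPL33 to 0.96 in MRPL2, and 53 of the 75 lie left of 0.

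MRPL33 (ENSG00000243147), the homologue of bacterial ribosomal protein L33 in the large subunit, fell furthest. It held 39.8, 37.7 and 40.3 CPM in siMK5 cells, against 76.8, 110.3 and 108 CPM in siCon cells. Its siMK5 libraries were close together and far below every siCon library, and siCon replicate 1 was the lowest of the siCon libraries. The log2 fold change was −1.33 ± 0.16 (edgeR adjusted p = 0.001), and −1.48 without replicate 1 of both groups. In GENCODE, 21.1% of the exon bases of MRPL33 also belong to another gene on the same strand. Its count therefore depends in part on how shared reads were assigned.

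MRPS18C (ENSG00000163319), a homologue of bacterial S18 at the platform of the small subunit, was among the members of lowest level per kilobase of exon. It held 4.31, 3.76 and 5.15 CPM in siMK5 cells, against 9.65, 8.88 and 11.5 CPM in siCon cells. The groups did not overlap, and the log2 fold change was −1.18 ± 0.20 (edgeR adjusted p = 0.00329). Another gene in GENCODE shares 40.2% of the exon bases of MRPS18C, none of them on the same strand. If strand was not used in counting, reads there cannot be told apart from those of the antisense gene. The human genome holds 3 paralogues of S18, and the other two did not pass. MRPS18B, which sits elsewhere in the small subunit, held 50.8, 58.1 and 58.6 CPM in siMK5 cells, against 56.2, 53.6 and 55.9 CPM in siCon cells (0.02 ± 0.10, edgeR adjusted p = 0.913). MRPS18A, in the large subunit, held 10.9, 9.39 and 10.4 CPM in siMK5 cells, against 13.98, 11.02 and 12.3 CPM in siCon cells (−0.28 ± 0.15, edgeR adjusted p = 0.176). Without siCon replicate 1 the log2 fold change of MRPS18A was −0.18. The siMK5 libraries of MRPS18A lay just below the siCon libraries, while those of MRPS18B straddled them. Whether the changes of the paralogues differ from each other was not tested.

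MRPL11 (ENSG00000174547), the homologue of L11 at the base of the stalk that receives the translational GTPases, had the lowest adjusted p of the members. It held 26.1, 25.2 and 25.9 CPM in siMK5 cells, against 56.4, 51.9 and 54.2 CPM in siCon cells. No library of one group came near the other, and the log2 fold change was −1.07 ± 0.10 (edgeR adjusted p = 0.000427). MRPL16, whose bacterial homologue helps to place transfer RNAs in the large subunit, held 18.5, 18.2 and 19.2 CPM in siMK5 cells, against 34.1, 34.4 and 36.2 CPM in siCon cells (−0.91 ± 0.10, edgeR adjusted p = 0.000877). It too had little spread within either group.

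The promoters of the 3 members that fell by at least 2-fold are shown with those of MRPL52, a fall whose promoter held 3 of the 4 motifs searched, and of MRPL55, the one rise with a sequence at hand. They come from RefSeq on GRCh38.p14, 250 bases before to 50 after the gene's start, 5′ to 3′ along the gene's strand. MRPL33 lies on the plus strand at chr2:27771469-27771768, MRPS18C on the plus strand at chr4:83455808-83456107 and MRPL11 on the minus strand at chr11:66438799-66439098. MRPL52 lies on the plus strand at chr14:22829637-22829936 and MRPL55 on the minus strand at chr1:228109250-228109549. Capitals mark the letters CCGGAAG, the core of ETS-family sites such as those of GABP, AAGATGGC, the core of the YY1 site, GCGCATGC, the core of the NRF1 site, and CACGTG, the E-box read by MYC and related factors, each on either strand.
MRPL33: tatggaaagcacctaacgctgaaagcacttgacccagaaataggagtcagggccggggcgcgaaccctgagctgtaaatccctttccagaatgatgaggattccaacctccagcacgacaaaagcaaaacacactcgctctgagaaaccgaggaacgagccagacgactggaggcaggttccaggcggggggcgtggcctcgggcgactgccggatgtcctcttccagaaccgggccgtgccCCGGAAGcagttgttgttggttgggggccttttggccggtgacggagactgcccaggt
MRPS18C: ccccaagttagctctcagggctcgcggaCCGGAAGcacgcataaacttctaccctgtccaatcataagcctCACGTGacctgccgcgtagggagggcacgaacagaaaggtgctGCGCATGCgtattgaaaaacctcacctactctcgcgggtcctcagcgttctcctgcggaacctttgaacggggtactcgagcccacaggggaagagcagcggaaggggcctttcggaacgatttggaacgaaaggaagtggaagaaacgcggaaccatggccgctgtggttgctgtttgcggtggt
MRPL11: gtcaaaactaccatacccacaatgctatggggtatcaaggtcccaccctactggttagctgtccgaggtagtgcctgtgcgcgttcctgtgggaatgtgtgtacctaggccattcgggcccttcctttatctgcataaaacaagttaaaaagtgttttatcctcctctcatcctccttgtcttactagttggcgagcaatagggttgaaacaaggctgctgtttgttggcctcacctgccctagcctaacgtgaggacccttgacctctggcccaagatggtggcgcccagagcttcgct
MRPL52: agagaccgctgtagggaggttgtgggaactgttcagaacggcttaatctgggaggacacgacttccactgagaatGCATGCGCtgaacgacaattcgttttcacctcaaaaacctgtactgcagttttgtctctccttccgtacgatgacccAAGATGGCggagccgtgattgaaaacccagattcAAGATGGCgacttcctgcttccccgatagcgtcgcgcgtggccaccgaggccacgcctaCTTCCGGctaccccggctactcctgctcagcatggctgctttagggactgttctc
MRPL55: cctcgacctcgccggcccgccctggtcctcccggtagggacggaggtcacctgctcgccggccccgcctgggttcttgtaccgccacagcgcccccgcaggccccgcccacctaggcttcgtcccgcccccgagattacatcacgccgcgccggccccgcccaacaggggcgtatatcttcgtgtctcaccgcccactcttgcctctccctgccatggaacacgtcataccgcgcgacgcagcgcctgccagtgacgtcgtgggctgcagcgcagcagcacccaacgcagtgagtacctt
The MRPL33 promoter held the ETS letters from 8 bases before the start on, and the MRPS18C promoter held the ETS, E-box and NRF1 letters. In MRPL52 the NRF1 letters, a pair of YY1 matches and the ETS letters followed each other toward the start. None of the 4 was found in these windows of MRPL11 and MRPL55.

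Promoters of 66 of the 75 members were matched by symbol, and the members without one were MRPL35, MRPL13, MRPS36, MRPS28, MRPL21, MRPL15, MRPL23, MRPL10 and MRPL2. The ETS letters stood in 27 of the 66 (40.9%), against 18.9% of the promoters of 10256 tested genes and 10.7% of all 27305 in the table. The YY1 letters stood in 19 (28.8%), against 5.32% of those of tested genes and 3.03% of all. The NRF1 letters stood in 6 (9.09%, against 5.54% of those of tested genes and 3.27% of all), and the E-box in 5 (7.58%, against 9.96% and 7.43%). A total of 8 members held both the ETS and the YY1 letters, 25 held none of the 4, and no matches of different motifs shared bases. Of the 20 YY1 matches, 14 began at or after the annotated start, and of the 36 ETS matches, 26 began within the 100 bases before it. The motifs were spread over members of either outcome. The ETS letters stood in 8 of 18 members that fell (44.4%) and 19 of 47 that did not pass (40.4%), and the YY1 letters in 6 of 18 (33.3%) and 13 of 47 (27.7%). A match is a run of letters and was not tested as a binding site.

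**Figure D2:**
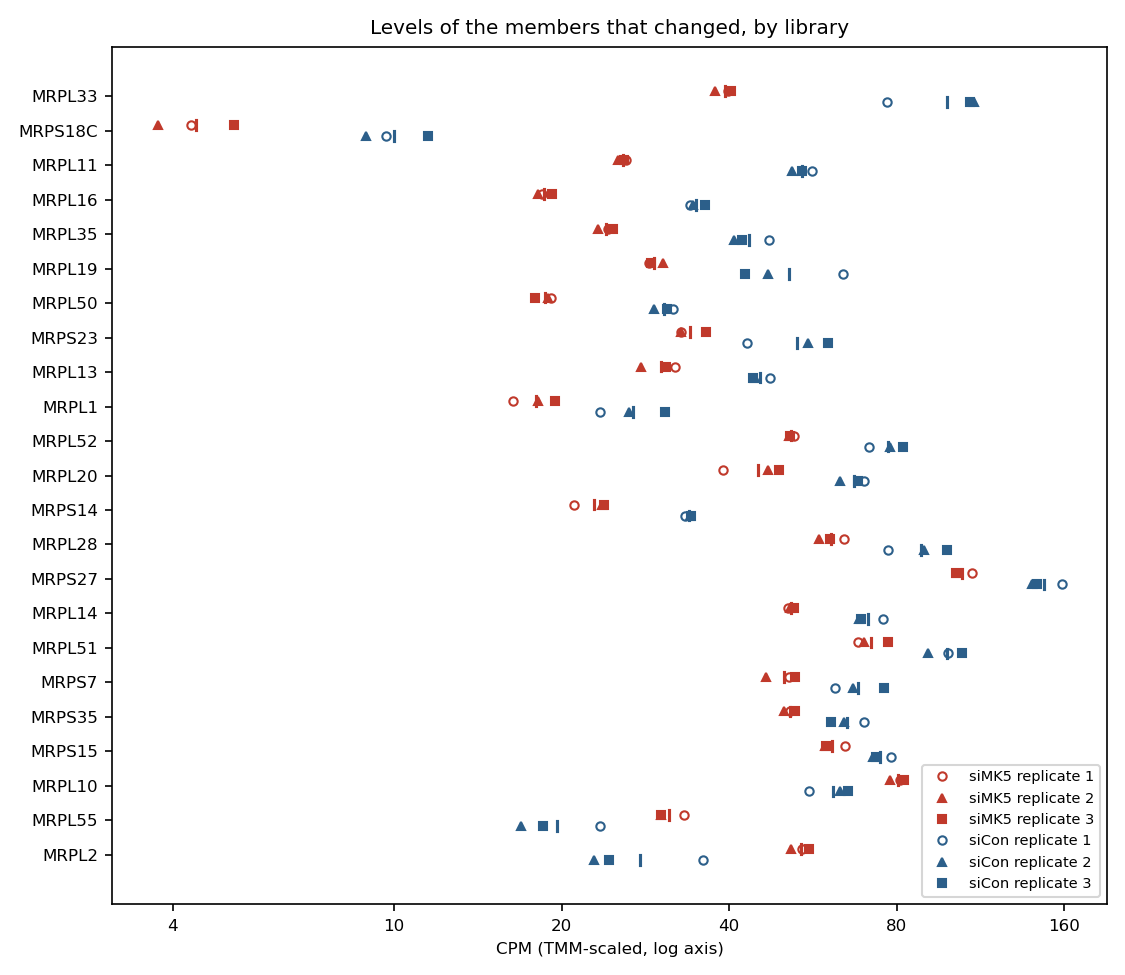
Level of each of the 23 members that changed, in CPM on a log axis, with 1 marker per library and a vertical tick at each group mean; siMK5 is red and drawn just above siCon in blue, and open circles are replicate 1. Red markers lie left of all blue markers in the upper 20 rows and right of them in MRPL10, MRPL55 and MRPL2.

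Among the small subunit members with bacterial homologues, 4 of 15 fell (26.7%, against 23.7% of all tested genes) and none rose (against 22.5%). Their median was −0.19. Beside MRPS18C the falls were MRPS14, MRPS7 and MRPS15. MRPS14 and MRPS7 belong to the head of the subunit. MRPS14 held 21.02, 23.6 and 23.8 CPM in siMK5 cells, against 33.4, 34.02 and 34.2 CPM in siCon cells (−0.57 ± 0.11, edgeR adjusted p = 0.00557). MRPS7 held 51.3, 46.6 and 52.6 CPM in siMK5 cells, against 62.1, 66.7 and 76.00 CPM in siCon cells (−0.44 ± 0.12, edgeR adjusted p = 0.0196). Both had separate groups, but MRPS7 missed the threshold without siMK5 replicate 2, siMK5 replicate 3 or siCon replicate 3 (edgeR adjusted p = 0.0970, 0.0595 and 0.0539). MRPS15 held 64.6, 59.6 and 59.7 CPM in siMK5 cells, against 78.1, 72.7 and 73.4 CPM in siCon cells (−0.29 ± 0.10, edgeR adjusted p = 0.0453). This was the smallest called change. It missed the threshold with a replicate block (edgeR adjusted p = 0.0535) and without any one library other than siCon replicate 1 (edgeR adjusted p = 0.0576 to 0.184).

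The other 11 small subunit members with bacterial homologues did not pass, and 10 of them had a negative log2 fold change. MRPS17 held 4.01, 3.89 and 3.8 CPM in siMK5 cells, against 6.05, 4.76 and 5.52 CPM in siCon cells (−0.48 ± 0.18, edgeR adjusted p = 0.0649). MRPS6 held 15.7, 13.7 and 12.8 CPM in siMK5 cells, against 24.6, 16.04 and 16.6 CPM in siCon cells (−0.44 ± 0.20, edgeR adjusted p = 0.115). MRPS12, the counterpart of the S12 protein at the decoding centre, held 29.04, 26.7 and 29.6 CPM in siMK5 cells, against 32.8, 32.4 and 41.7 CPM in siCon cells (−0.33 ± 0.14, edgeR adjusted p = 0.0897). The siMK5 libraries lay below the siCon libraries in these 3 genes, and siCon replicate 1 was the highest library of MRPS17 and of MRPS6. Without it the log2 fold change of MRPS6 was −0.21. MRPS16 held 103, 112 and 121 CPM in siMK5 cells, against 123, 125 and 130.4 CPM in siCon cells (−0.17 ± 0.10, edgeR adjusted p = 0.201).

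Of the 10 mitochondria-specific small subunit members, 3 fell (30%, against 23.7% of all tested genes) and none rose (against 22.5%). Their median was −0.05. For these and the 15 above, the number higher was 0 also at an unadjusted p below 0.05 and by DESeq2 and limma. MRPS23 held 32.8, 32.7 and 36.4 CPM in siMK5 cells, against 43.1, 55.5 and 60.1 CPM in siCon cells (−0.64 ± 0.15, edgeR adjusted p = 0.0117). MRPS27, an RNA-binding pentatricopeptide repeat protein, held 109, 103 and 102 CPM in siMK5 cells, against 159, 140.3 and 143 CPM in siCon cells (−0.49 ± 0.10, edgeR adjusted p = 0.00684). MRPS35 held 51.4, 50.1 and 52.7 CPM in siMK5 cells, against 70.03, 64.3 and 60.9 CPM in siCon cells (−0.34 ± 0.10, edgeR adjusted p = 0.0294). In all 3 the groups were separate. MRPS23 missed the threshold without siMK5 replicate 2 (edgeR adjusted p = 0.0560), and MRPS35 without siCon replicate 2 or any one of the siMK5 libraries (edgeR adjusted p = 0.0706 to 0.132). At the upper end, MRPS33 held 29.9, 33.00 and 35.6 CPM in siMK5 cells, against 20.3, 30.3 and 27.5 CPM in siCon cells, with overlapping groups (0.33 ± 0.17, edgeR adjusted p = 0.15, and 0.19 on the log2 scale without siCon replicate 1).

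The large subunit members with bacterial homologues held most of the calls. Of 29, 10 fell (34.5%, against 23.7% of all tested genes) and 3 rose (10.3%, against 22.5%), with a median of −0.12. Beside MRPL33, MRPL11 and MRPL16, the falls were MRPL35, MRPL19, MRPL13, MRPL1, MRPL20, MRPL28 and MRPL14. MRPL35 held 24.3, 23.3 and 24.7 CPM in siMK5 cells, against 47.2, 40.9 and 42.1 CPM in siCon cells (−0.85 ± 0.11, edgeR adjusted p = 0.0013). MRPL19, whose bacterial homologue lies at the interface with the small subunit, held 28.7, 30.4 and 28.9 CPM in siMK5 cells, against 63.98, 47.00 and 42.8 CPM in siCon cells (−0.80 ± 0.17, edgeR adjusted p = 0.00767). Its siCon replicate 1 was well above the other siCon libraries, and the log2 fold change was −0.59 without replicate 1 of both groups.

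MRPL13 held 31.9, 27.8 and 30.8 CPM in siMK5 cells, against 47.4, 44.5 and 44.2 CPM in siCon cells (−0.59 ± 0.11, edgeR adjusted p = 0.00464). MRPL20, whose bacterial homologue is needed early in assembly of the large subunit, held 39.00, 46.9 and 49.1 CPM in siMK5 cells, against 69.8, 63.2 and 68.3 CPM in siCon cells (−0.58 ± 0.12, edgeR adjusted p = 0.00852). Replicate 1 was the lowest siMK5 library of MRPL20 and the highest siCon library. MRPL28 held 64.4, 57.9 and 60.8 CPM in siMK5 cells, against 77.4, 89.6 and 98.4 CPM in siCon cells (−0.53 ± 0.12, edgeR adjusted p = 0.0109). MRPL14, an interface protein that the assembly factor MALSU1 binds, held 51.05, 51.5 and 52.4 CPM in siMK5 cells, against 75.7, 68.4 and 68.98 CPM in siCon cells (−0.46 ± 0.10, edgeR adjusted p = 0.00802). The groups were separate in each of the 4 genes. MRPL28 missed the threshold without siMK5 replicate 2 or 3 (edgeR adjusted p = 0.0599 and 0.0511), and MRPL14 without siMK5 replicate 2 (edgeR adjusted p = 0.0502).

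The 3 rises were all in this group. MRPL2 (ENSG00000112651), the homologue of L2, a protein close to the peptidyl transferase centre, held 54.1, 51.7 and 55.7 CPM in siMK5 cells, against 35.97, 22.9 and 24.3 CPM in siCon cells (0.96 ± 0.19, edgeR adjusted p = 0.00603). Its siCon replicate 1 was the siCon library nearest to the siMK5 libraries, and the log2 fold change was 1.19 without replicate 1 of both groups. MRPL55, the counterpart of bacterial L31, held 33.1, 30.2 and 30.2 CPM in siMK5 cells, against 23.4, 16.9 and 18.5 CPM in siCon cells (0.67 ± 0.15, edgeR adjusted p = 0.011). It missed the threshold without siCon replicate 3 (edgeR adjusted p = 0.0507). MRPL10, which anchors the flexible stalk of the large subunit, held 81.1, 77.9 and 82.4 CPM in siMK5 cells, against 55.7, 63.3 and 65.4 CPM in siCon cells (0.39 ± 0.10, edgeR adjusted p = 0.0205). The groups were separate, but the call was lost without siCon replicate 2 or any one of the siMK5 libraries (edgeR adjusted p = 0.0516 to 0.0840).

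Of the 20 mitochondria-specific large subunit members, 3 fell (15%, against 23.7% of all tested genes) and none rose (against 22.5%). Their median was −0.11. At an unadjusted p below 0.05, 1 was higher, and none was higher by DESeq2 or limma. MRPL50 held 19.2, 18.9 and 17.9 CPM in siMK5 cells, against 31.7, 29.3 and 30.9 CPM in siCon cells (−0.71 ± 0.11, edgeR adjusted p = 0.00223). MRPL52 held 52.4, 51.3 and 51.4 CPM in siMK5 cells, against 71.3, 77.9 and 82.2 CPM in siCon cells (−0.58 ± 0.10, edgeR adjusted p = 0.00387). MRPL51 held 68.3, 69.9 and 77.3 CPM in siMK5 cells, against 99.2, 91.3 and 105 CPM in siCon cells (−0.45 ± 0.11, edgeR adjusted p = 0.0121). The groups were separate in all 3, and MRPL51 missed the threshold without siMK5 replicate 2 (edgeR adjusted p = 0.0692). Another gene in GENCODE 29 shares 31.3% of the exon bases of MRPL51, none of them on the same strand. MRPS30 was at 42.5, 33.5 and 35.01 CPM in siMK5 cells, against 41.8, 31.9 and 32.6 CPM in siCon cells (0.06 ± 0.16, edgeR adjusted p = 0.765), and replicate 1 was its highest library in both groups. MRPS36, the dehydrogenase subunit, was at 22.3, 18.8 and 17.7 CPM in siMK5 cells, against 22.7, 21.5 and 22.6 CPM in siCon cells (−0.18 ± 0.13, edgeR adjusted p = 0.287).

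By place in the ribosome, the stalks of the large subunit held changes in both directions. Of 6 stalk members, MRPL11 and MRPL1 fell (33.3%, against 23.7% of all tested genes) and MRPL10 rose (16.7%, against 22.5%). MRPL1, the protein of the mobile L1 stalk near the exit path of transfer RNA, held 16.3, 18.1 and 19.5 CPM in siMK5 cells, against 23.5, 26.4 and 30.7 CPM in siCon cells (−0.58 ± 0.15, edgeR adjusted p = 0.0162). It missed the threshold without siMK5 replicate 1, siMK5 replicate 2 or siCon replicate 3 (edgeR adjusted p = 0.0526, 0.0655 and 0.0501) and without scaling of the library totals (edgeR adjusted p = 0.0502). MRPL12, the counterpart of L7/L12 that binds to MRPL10 and is also reported to bind the mitochondrial RNA polymerase, held 6.2, 4.52 and 5.79 CPM in siMK5 cells, against 7.89, 7.26 and 9.03 CPM in siCon cells. Its groups did not overlap, and it missed the threshold (−0.55 ± 0.19, edgeR adjusted p = 0.0518) but passed with a replicate block and with RLE scaling (edgeR adjusted p = 0.0406 and 0.0489), with DESeq2 (adjusted p = 0.0191) and with limma at pseudocounts of 0.5 and 2 (adjusted p = 0.0471 and 0.0413). In GENCODE 29, 68.2% of the exon bases of MRPL12 also belong to another gene on the same strand, so its count depends on how shared reads were assigned.

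The 5 members of the central protuberance, the crest of the large subunit, gave no call by edgeR or limma, and DESeq2 called 2 lower. At an unadjusted p below 0.05, 2 were lower and 1 higher. By edgeR, 23.7% of all tested genes fell and 22.5% rose. MRPL40 held 20.98, 23.5 and 25.9 CPM in siMK5 cells, against 24.8, 35.8 and 37.6 CPM in siCon cells (−0.48 ± 0.18, edgeR adjusted p = 0.0704, and 0.0368 with a replicate block). MRPL18 held 43.02, 44.7 and 44.7 CPM in siMK5 cells, against 62.8, 51.6 and 51.5 CPM in siCon cells (−0.32 ± 0.12, edgeR adjusted p = 0.0576). MRPL48 held 19.3, 18.3 and 18.2 CPM in siMK5 cells, against 28.9, 19.7 and 20.6 CPM in siCon cells (−0.31 ± 0.17, edgeR adjusted p = 0.183). In MRPL18 and MRPL48 the groups did not overlap and siCon replicate 1 was the highest library, while in MRPL40 siCon replicate 1 was the lowest siCon library and lay among the siMK5 values. Without siCon replicate 1 the log2 fold changes were −0.22 in MRPL18 and −0.11 in MRPL48. The 7 measured members at the exit of the nascent chain also gave no call by edgeR or limma, and 1 was lower by DESeq2 and at an unadjusted p below 0.05. Among them MRPL39 held 25.9, 23.02 and 24.98 CPM in siMK5 cells, against 45.6, 29.3 and 30.03 CPM in siCon cells (−0.50 ± 0.19, edgeR adjusted p = 0.0681, and −0.26 on the log2 scale without siCon replicate 1), and MRPL24 held 30.6, 34.6 and 34.5 CPM in siMK5 cells, against 33.5, 46.2 and 50.5 CPM in siCon cells (−0.38 ± 0.17, edgeR adjusted p = 0.103). Of the 8 members in the head of the small subunit, MRPS14, MRPS7 and MRPS35 fell (37.5%, against 23.7% of all tested genes). The other 5 did not pass.

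The summed level of the members gives the size of the change for the family as a whole. All 75 together held 3152, 3013 and 3146 CPM in siMK5 cells, against 3556, 3401 and 3634 CPM in siCon cells, with means of 3103 ± 78.7 CPM in siMK5 cells and 3530.0 ± 118 CPM in siCon cells (SD, n = 3 each). The siMK5 libraries lay below the siCon libraries, and the mean was 12.1% lower. The small subunit members were 12.3% lower and the large subunit members 11.9% lower. Both the size and the separation depended on the scaling. On library totals without TMM scaling the members held 3143, 3186 and 3315 CPM in siMK5 cells, against 3287, 3343 and 3587 CPM in siCon cells. There siMK5 replicate 3 lay above siCon replicate 1, with means of 3215 ± 89.2 CPM in siMK5 cells and 3406 ± 159 CPM in siCon cells (SD, n = 3 each). The small subunit members were then 5.89% lower and the large subunit members 5.44% lower. With TMM scaling, the 20 members that fell held 814, 796 and 831 CPM in siMK5 cells, against 1229, 1217 and 1271 CPM in siCon cells. The other 55 held 2338, 2216 and 2315 CPM in siMK5 cells, against 2326, 2183 and 2362 CPM in siCon cells, a mean 0.0425% lower. This split follows from how the 20 were chosen and carries no test.

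Levels between members are compared per kilobase of exon, with lengths from GENCODE 29. The members ranged from 0.463 to 66.5 CPM per kb around a median of 16.1. The highest were MRPS34 at 70.2 CPM per kb in siMK5 cells and 62.9 in siCon cells, MRPL14 at 53.9 and 74.1, and MRPL15 at 62.7 and 65.02. MRPL51 followed at 46.3 CPM per kb in siMK5 cells and 63.4 in siCon cells, and MRPL37 at 51.7 and 50.9. The lowest were MRPL38 at 0.601 and 0.325, MRPL46 at 0.469 and 0.517, and MRPL53 at 1.26 and 0.876. MRPL38 and MRPL53 also have 37.5% and 45.2% of their exon bases inside another gene on the same strand. MRPL38 held 1.2, 2.57 and 2.83 CPM in siMK5 cells, against 1.03, 1.18 and 1.35 CPM in siCon cells (0.89 ± 0.36, edgeR adjusted p = 0.0827), and MRPL53 held 1.13, 1.81 and 2.15 CPM in siMK5 cells, against 1.11, 0.958 and 1.46 CPM in siCon cells (0.53 ± 0.32, edgeR adjusted p = 0.22). In both, siMK5 replicate 1 lay near the siCon values and the other siMK5 libraries above them, and MRPL38 passed without siMK5 replicate 1 (1.18, edgeR adjusted p = 0.0168).

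**Figure D3:**
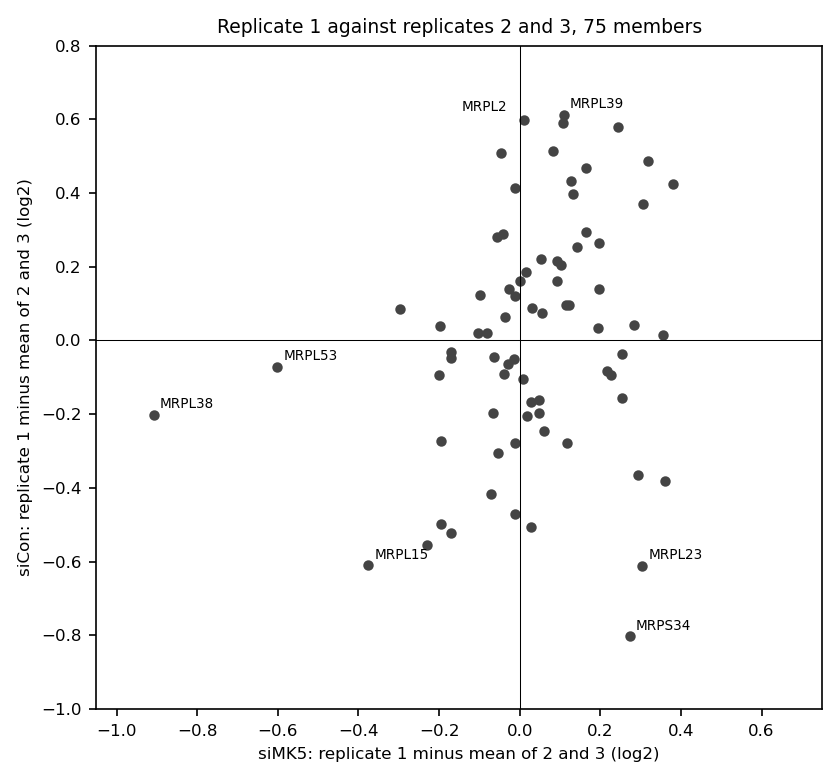
Deviation of replicate 1 from the mean of replicates 2 and 3 for each of the 75 members, on log2(CPM + 0.5), in siMK5 cells (x axis) and siCon cells (y axis). The points spread more along the siCon axis, from −0.80 in MRPS34 to 0.61 in MRPL39, and MRPL38 and MRPL53 stand out to the left.

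Replicate 1 of siCon often stood apart from the other siCon libraries. It lay at least 0.4 below the mean of replicates 2 and 3, on log2(CPM + 0.5), in 9 members and at least 0.4 above it in 11, while replicate 1 of siMK5 lay that far below in 2 members and that far above in none. The deviation was not particular to the members. In siCon cells its SD was 0.324 over the members and 0.659 over all tested genes. In siMK5 cells the SD was 0.21 over the members and 0.331 over all tested genes. MRPS34 shows the pattern, with 87.1, 71.05 and 72.9 CPM in siMK5 cells, against 45.9, 74.1 and 86.98 CPM in siCon cells (0.16 ± 0.23, edgeR adjusted p = 0.604). Without replicate 1 of both groups its log2 fold change was −0.16. The median SD over the mean was 6.37% in siMK5 cells and 11.9% in siCon cells.

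Without replicate 1 of both groups, 33 members fell and 12 rose, and all 20 falls and 3 rises of the full set were among them. In that fit 37.8% of 13690 tested genes fell and 37.9% rose, so the members' falls (33 of 75) stood nearer the background than their rises (12 of 75). The added falls included MRPL12, MRPL40, MRPL24, MRPS17, MRPS12, MRPL39, MRPS6 and MRPL18. The added rises included MRPL38, MRPL53, MRPL3 and MRPS33. Without siCon replicate 1 alone, 26 members fell and 9 rose. In that fit MRPL40 (edgeR adjusted p = 0.00135), MRPL24 (0.00144), MRPS12 (0.0254), MRPL12 (0.0276), MRPL18 (0.0293) and MRPL39 (0.0347) joined the falls. The rises gained MRPL3 (edgeR adjusted p = 0.00732), MRPS26 (0.0165), MRPL44 (0.0350), MRPS2 (0.0376), MRPL34 (0.0397) and MRPL37 (0.0452). Without siMK5 replicate 2 alone, 12 members fell and 2 rose. Shares of all tested genes in the fits that left out 1 library are not given here, so these counts have no background. MRPL3 held 139.7, 135 and 153 CPM in siMK5 cells, against 139, 111 and 117 CPM in siCon cells (0.22 ± 0.12 with all libraries, edgeR adjusted p = 0.175).

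Mitoribosomal proteins without an MRP symbol gave 2 falls among 6 genes tested (33.3%, against 23.7% of all tested genes). With all libraries none of the 6 rose (against 22.5%). DAP3, a GTP-binding protein of the small subunit first described in cell death, held 54.8, 63.3 and 66.7 CPM in siMK5 cells, against 93.5, 96.3 and 104 CPM in siCon cells (−0.67 ± 0.11, edgeR adjusted p = 0.00362). PTCD3, a pentatricopeptide repeat protein of the small subunit, held 73.5, 67.4 and 69.6 CPM in siMK5 cells, against 117, 97.02 and 93.6 CPM in siCon cells (−0.55 ± 0.12, edgeR adjusted p = 0.0094, and 0.0545 without siMK5 replicate 2). The groups were separate in both. GADD45GIP1, of the large subunit, gave −0.38 ± 0.15 (edgeR adjusted p = 0.0734, and 0.00337 without siCon replicate 1), and OXA1L, the membrane insertase at the exit of the ribosome, −0.18 ± 0.09 (edgeR adjusted p = 0.13). CHCHD1 gave −0.08 ± 0.11 and AURKAIP1 0.11 ± 0.11, and neither passed (edgeR adjusted p = 0.596 and 0.443).

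Among 28 tested genes for assembly of the mitoribosome, 7 fell (25%, against 23.7% of all tested genes) and 3 rose (10.7%, against 22.5%). Their median was −0.13. Without siCon replicate 1, 11 fell and 5 rose, and without any one other library 5 to 7 fell and 0 or 1 rose. The shares of all tested genes in these fits are not given here. MTERF3, a mitochondrial regulator needed for ribosome assembly, held 10.7, 11.7 and 11.4 CPM in siMK5 cells, against 26.5, 19.2 and 20.99 CPM in siCon cells (−0.98 ± 0.16, edgeR adjusted p = 0.00303). MALSU1, which keeps the immature large subunit from joining the small one, held 16.4, 13.1 and 13.7 CPM in siMK5 cells, against 36.1, 23.7 and 23.9 CPM in siCon cells (−0.95 ± 0.20, edgeR adjusted p = 0.00891). ERAL1, a chaperone of the small subunit ribosomal RNA, held 31.2, 34.9 and 36.2 CPM in siMK5 cells, against 69.7, 59.2 and 63.5 CPM in siCon cells (−0.91 ± 0.12, edgeR adjusted p = 0.00127). These 3 had separate groups. The ribosomal RNA methyltransferase MRM2 (−0.76 ± 0.12, edgeR adjusted p = 0.00304) and the GTPase GTPBP10 (−0.72 ± 0.13, edgeR adjusted p = 0.00433) fell as well. The rises were AFG3L2, a subunit of the protease that processes MRPL32 (0.53 ± 0.18, edgeR adjusted p = 0.0468, and 0.0717 with a replicate block, with 0.31 on the log2 scale without replicate 1 of both groups), NSUN4, a methyltransferase of ribosomal RNA (0.42 ± 0.11, edgeR adjusted p = 0.0174), and MIEF1, a mitochondrial fission factor whose locus also encodes an assembly microprotein (0.38 ± 0.11, edgeR adjusted p = 0.0276). Each of these rises was lost when single libraries were left out. AFG3L2 was lost without siCon replicate 2 or any one of the siMK5 libraries (edgeR adjusted p = 0.0689 to 0.128), NSUN4 without siMK5 or siCon replicate 2 or 3 (edgeR adjusted p = 0.0523 to 0.0821) and MIEF1 without any one library other than siCon replicate 1 (edgeR adjusted p = 0.0612 to 0.123).

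**Figure D4:**
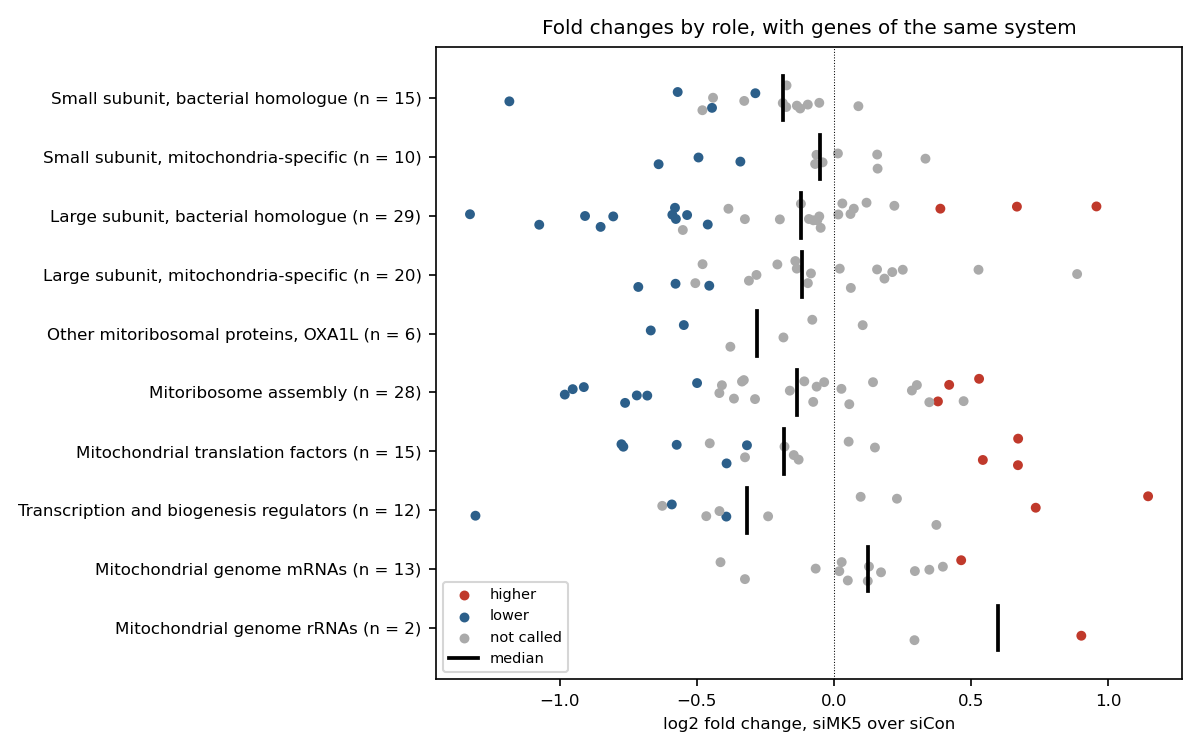
Log2 fold change of siMK5 over siCon for each gene, by role of the members (upper 4 rows) and for lists of the same system, with blue for falls, red for rises and a black bar at the median. The 3 rises among the members lie in the row of large subunit proteins with bacterial homologues, and MT-RNR2, at 0.90, is the red point of the lowest row.

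Of 15 mitochondrial translation factors, 5 fell (33.3%, against 23.7% of all tested genes) and 3 rose (20%, against 22.5%). Their median was −0.18. The falls numbered 2 or 3 when any one library other than siCon replicate 1 was left out. MTFMT, which formylates the initiator methionine, held 8.17, 8.94 and 8.96 CPM in siMK5 cells, against 10.8, 16.8 and 16.9 CPM in siCon cells (−0.77 ± 0.20, edgeR adjusted p = 0.0196). It was lost without any one library other than siCon replicate 1 (edgeR adjusted p = 0.0571 to 0.0664). SLIRP, which stabilizes mitochondrial messengers together with LRPPRC, held 27.7, 28.8 and 31.4 CPM in siMK5 cells, against 45.9, 49.5 and 54.4 CPM in siCon cells (−0.77 ± 0.12, edgeR adjusted p = 0.00225). The GTPase GUF1 gave −0.57 ± 0.11 (edgeR adjusted p = 0.00547). The elongation factors GFM1 (−0.39 ± 0.10, edgeR adjusted p = 0.0188) and TUFM (−0.32 ± 0.10, edgeR adjusted p = 0.0386) fell by less, and TUFM missed the threshold with a replicate block (edgeR adjusted p = 0.0614). TUFM was also lost without siMK5 or siCon replicate 2 or 3 (edgeR adjusted p = 0.0842 to 0.170), and GFM1 without siCon replicate 3 or any one of the siMK5 libraries (edgeR adjusted p = 0.0516 to 0.0906). The rises were the initiation factor MTIF3 (0.67 ± 0.11, edgeR adjusted p = 0.00308) and the release factors MTRF1 (0.67 ± 0.15, edgeR adjusted p = 0.00911, and 0.0506 without siMK5 replicate 2) and MTRF1L (0.54 ± 0.10, edgeR adjusted p = 0.00494).

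Of 12 tested regulators of mitochondrial transcription and biogenesis, 3 fell (25%, against 23.7% of all tested genes) and 2 rose (16.7%, against 22.5%). Falls numbered 1 without any one siMK5 library and 2 without siCon replicate 3, and 5 fell and 4 rose without siCon replicate 1. Again the shares of all tested genes in these fits are not given. TFAM, which packs the mitochondrial genome, held 36.4, 35.6 and 36.3 CPM in siMK5 cells, against 121, 75.2 and 71.5 CPM in siCon cells. Its log2 fold change was −1.31 ± 0.21 (edgeR adjusted p = 0.00305). GABPA, the ETS factor whose letters were searched in the promoters, held 25.3, 25.1 and 25.7 CPM in siMK5 cells, against 46.2, 36.9 and 31.5 CPM in siCon cells (−0.59 ± 0.16, edgeR adjusted p = 0.0196), and missed the threshold without any one of the siMK5 libraries (edgeR adjusted p = 0.0623 to 0.0769). In both genes siCon replicate 1 was the highest library. PPRC1, a coactivator of the PGC-1 family, gave −0.39 ± 0.11 (edgeR adjusted p = 0.0231) and was lost without any one library other than siCon replicate 1 (edgeR adjusted p = 0.0565 to 0.0857). NRF1 gave −0.63 ± 0.23 (edgeR adjusted p = 0.0595) and YY1 0.37 ± 0.13 (edgeR adjusted p = 0.0561), and with a replicate block both passed (edgeR adjusted p = 0.0392 and 0.0444). Without siCon replicate 1 both passed too, NRF1 with a smaller log2 fold change (−0.34, edgeR adjusted p = 0.0375) and YY1 at 0.42 (edgeR adjusted p = 0.0167). Without replicate 1 of both groups NRF1 stood at −0.41. NRF1 also passed without siCon replicate 2 (edgeR adjusted p = 0.0466), and YY1 without scaling of the library totals (edgeR adjusted p = 0.0141). The nuclear receptor ESRRA held 65.2, 59.6 and 61.1 CPM in siMK5 cells, against 21.2, 28.7 and 34.1 CPM in siCon cells (1.15 ± 0.18, edgeR adjusted p = 0.00259). POLRMT, the mitochondrial RNA polymerase, held 79.4, 67.7 and 71.3 CPM in siMK5 cells, against 45.9, 39.8 and 45.4 CPM in siCon cells (0.74 ± 0.11, edgeR adjusted p = 0.00259). Their part in the members' levels was not tested.

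The ribosomal and messenger RNAs of the mitochondrial genome are those that the mitoribosome is built on or reads. With all libraries, none of them was lower by edgeR, DESeq2 or limma, or at an unadjusted p below 0.05. Without siCon replicate 1 edgeR called 2 of them lower, and without replicate 1 of both groups 3. Of all tested genes, 23.7% fell with all libraries and 37.8% without replicate 1 of both groups. MT-RNR2, the large subunit ribosomal RNA, held 1564, 1581 and 1688 CPM in siMK5 cells, against 718, 1025 and 842 CPM in siCon cells, with separate groups (0.90 ± 0.15, edgeR adjusted p = 0.00314). MT-RNR1, the small subunit ribosomal RNA, held 235, 212 and 230.4 CPM in siMK5 cells, against 167, 211 and 174 CPM in siCon cells (0.29 ± 0.12, edgeR adjusted p = 0.0869, and 0.0419 without scaling of the library totals). Whether the counts of MT-RNR1 and MT-RNR2 in these libraries follow the amount of ribosomal RNA in the cells was not tested. Without replicate 1 of both groups, 4 of the 13 messenger RNAs of the mitochondrial genome rose, where 37.9% of 13690 tested genes did. With all libraries 1 rose (7.69%, against 22.5% of all tested genes), with a median of 0.12. This was MT-ND1, a subunit of complex I, at 520.1, 461 and 588 CPM in siMK5 cells, against 371, 389 and 378 CPM in siCon cells (0.46 ± 0.12, edgeR adjusted p = 0.017), a call lost without siMK5 replicate 3, siCon replicate 2 or siCon replicate 3 (edgeR adjusted p = 0.0728, 0.0544 and 0.0611).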

How the data were processed

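RNA of 6 libraries of LATS1/2-inactivated RPE1 cells was sequenced, 3 per group. Per the labels' protocols, the TruSeq V2 kit turned total RNA into libraries. Per the submitters' processing notes, the tools were HTSeq 0.9.1, TopHat2 2.1.1, Trimmomatic 0.36 and FastQC, with GRCh37 as build and no settings. No source used here gives the siRNA sequences, the annotation release or the strand setting. If strand was not used, a gene's reads cannot be told apart from those of an antisense gene, and 35 members share no exon base with another gene in GENCODE 29. The values deposited by the authors are whole-number counts per gene that sum to 27188074 to 28236773 per library, although the table is named for CPM.

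In R 4.3.3, edgeR 4.0.16 kept genes by filterByExpr (least count 10, least total 15), scaled by TMM and fitted group alone over 13431 genes, two-sided, with Benjamini-Hochberg adjustment and a threshold of 0.05. The SE is the log2 fold change divided by the square root of F. Deviations of replicate 1 use log2(CPM + 0.5). Alternatives were RLE, upper quartile and no scaling, filters (every gene with a count, mean count of at least 20), DESeq2 1.42.0, limma 3.58.1 on log2(CPM + 0.5) and log2(CPM + 2), a replicate block and left-out libraries. The fit was tested on simulated counts.

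Members and lists were chosen with earlier results of these data known. Named genes are the siRNA target, the 10 largest changes each way among members that passed, the 5 highest and 3 lowest members per kb, members with known special roles, all of short lists and the 3 largest changes each way of longer ones. The other 10 falls and 18 further genes were named after their values were seen, as was the MRPL52 promoter.

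Libraries of the same number deviated from their group means together (correlations of 0.258, 0.206 and 0.248 over genes for replicates 1, 2 and 3), which by the rule used here marks equal numbers as pairs. The main fit has no replicate block, and the pairs enter as an alternative. The pairing is read from the data, and the labels name no shared day. Replicates 2 and 3 also correlated across numbers (0.182 and 0.151). The reference lengths, exons and promoters are GRCh38, not the authors' build, and were matched by identifier or symbol.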

Additional observations from a re-analysis of the deposited data

How the results depend on the processing

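The 20 falls and 3 rises became 33 and 12 without replicate 1 in both groups, where 37.8% of 13690 tested genes fell and 37.9% rose. When 1 library was left out, 12 to 26 members fell and 2 to 9 rose. The fewest falls came without siMK5 replicate 2 (12) and the most calls without siCon replicate 1 (26 and 9). Shares of all tested genes are not given for the fits that left out 1 library. With a replicate block, 21 fell and 3 rose. Other scalings, filters and tools gave 16 to 25 falls and 3 or 4 rises. Among these fits and the block, shares of all tested genes are given for DESeq2 alone (26.6% lower and 24.2% higher). The other counts have no background. MRPL1, MRPS7, MRPS35 and MRPS15, and outside the members PPRC1, TUFM and GFM1, lost their calls without scaling. MRPS35, MRPS15, MIEF1, NSUN4 and TUFM lost theirs with every gene tested that had a count. Of the 23 calls, 13 (12 falls and the rise of MRPL2) passed in all 6 fits that left out 1 library. Without scaling of library totals the median of all genes moved to 0.10 and that of the members to −0.03, with 41 of 75 negative. The common coefficient of variation beyond counting noise was 21.2% with all libraries, 4.63% in replicates 2 and 3 and 18.6% with the block.

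Over 79 named genes, 1116 alternative values kept direction and side of the threshold, 79 lost the call, 54 gained it and 15 reversed, none of them called with all libraries. With 1 library left out, the log2 fold change ranged from −0.0863 to 0.179 in MRPL37, from −0.224 to 0.0661 in MRPL15, from −0.0602 to 0.342 in MRPS34, from −0.0258 to 0.0813 in MRPS18B and from −0.0461 to 0.203 in MRPS30. MRPS34 also gave −0.158 without replicate 1 of both groups, and without scaling MRPL15 gave 0.0467 and CHCHD1 0.0220. The cause was not tested. Counts were lowest in MRPL53 and MRPL38, with means of 40.3 and 47.8.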

Other observations

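Across the 75 members, the log2 fold change of siMK5 over siCon had a Spearman correlation of 0.32 with the GC content of the gene's longest transcript. With the length of all its exons the correlation was −0.13. Over all tested genes these values were 0.06 and 0.01. These are descriptions across genes of the same 6 libraries, and genes are not independent replicates. The deviation of replicate 1 from replicates 2 and 3 had a Spearman correlation between siMK5 and siCon of 0.268 over the members and 0.248 over all tested genes.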
